A study of Homo sapiens with 12 samples.

Results

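The 7 genes described here, TYMS, TK1, RRM1, RRM2, DUT, DTYMK and DCK, encode enzymes that make or guard the deoxynucleotide building blocks of DNA. They were chosen by name, with earlier results of these data known, so their shares beside those of all probe sets are descriptive. All of their probe sets (the groups of short oligonucleotides that each measure a transcript) were taken: 12 of 22277 on the array, for 7 of the 11963 genes that have a probe set with 1 gene symbol. DUT has 3 probe sets, TYMS, RRM1 and RRM2 have 2 each, and TK1, DTYMK and DCK have 1 each. Expression was measured in 22RV1 and LnCaP, established human prostate cancer cell lines, each left untreated or exposed to nicotine tartrate at 100 µM for 24 h. Each of the 4 groups of line and treatment held 3 replicates on 12 single-colour Affymetrix arrays, hybridised with biotin-labelled cRNA from TRIzol-extracted total RNA. The controls are labelled untreated with no vehicle named, and nothing says whether replicates were separate cultures, so p-values measure only how far these arrays vary, and that variation may be technical. The study asked how nicotine changes gene expression in both lines, beside work on prostate tumors of smokers.

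DNA synthesis needs a balanced supply of the 4 deoxynucleoside triphosphates, and dividing cells raise that supply as they enter S phase. Ribonucleotide reductase, built from the large subunit RRM1 and the small radical-bearing subunit RRM2, converts ribonucleotides to deoxyribonucleotides. Thymidylate synthase (TYMS) methylates dUMP to dTMP, the dUTPase DUT supplies dUMP and keeps uracil out of DNA, and thymidylate kinase (DTYMK) phosphorylates dTMP onward. Thymidine kinase 1 (TK1) and deoxycytidine kinase (DCK) salvage nucleosides that have already been made. TYMS, TK1, RRM2 and the nuclear form of DUT are textbook examples of genes transcribed around S phase, and the TYMS and RRM2 proteins are targets of cancer drugs.

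The promoters of the members are shown because such genes are commonly described by the E2F and CCAAT elements before their starts. RefSeq (GRCh38.p14) lists 12 starts for the 7 genes, 4 for DUT, 2 each for RRM2 and TK1 and 1 for each other gene. The 250 bases before each start were searched on both strands for TTTNNCGC (E2F-like), CCAAT and TTTGAA (the CHR element). Capitals mark a match to the first or second of these motifs, on either strand. Each line below runs 5′ to 3′ along the gene and ends at, or lies shortly before, a listed start. For TYMS and DTYMK it is the 120 bases before the start, and for DUT, RRM2 and TK1 a stretch of 30 bases.
TYMS, chr18:657533-657652, plus strand: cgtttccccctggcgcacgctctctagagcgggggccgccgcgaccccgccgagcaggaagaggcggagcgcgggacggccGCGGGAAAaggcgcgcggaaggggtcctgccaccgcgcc
DUT, chr15:48332151-48332180, plus strand: gctgGCGGGAAAtttcggtTTTGGCGCgct
DTYMK, chr2:241686816-241686935, minus strand: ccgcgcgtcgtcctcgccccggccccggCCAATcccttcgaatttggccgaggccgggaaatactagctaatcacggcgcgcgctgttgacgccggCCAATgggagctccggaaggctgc
RRM2, chr2:10122660-10122689, plus strand: cggggcaccaaagCCAATgggaagggccgg
TK1, chr17:78187082-78187111, minus strand: gggccggctcgtgATTGGccagcacgccgt

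The E2F-like motif was found in 1 promoter each of TYMS, 39 bases before its start, and DUT, 42 and 27 bases before 1 of its 4 starts, which is 2 of 12 member promoters (16.7%) against 5.92% of 35116 promoters in the table. CCAAT was found in 5 of 12 member promoters (41.7%), of DTYMK, RRM1, RRM2 and TK1, against 32% of all promoters. It lay 66 bases before a start of RRM2 and 46 bases before a start of TK1, as in the stretches shown, and also farther up in both. The CHR letters were found in 2 of 12 (16.7%), of DUT and RRM1, against 13.3% of promoters. The shares for CCAAT and CHR are near those of all promoters. The share for the E2F-like motif rests on 2 promoters and was not tested. The 12 promoters are not independent, since those of 1 gene can overlap, as for DUT. No match to any of the 3 motifs was found for DCK. For each gene, a missing match says only that these exact letters are not in that window.

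Arrays of a group correlated at 0.992 or above over all probe sets, and arrays of different lines at 0.933 or below. The arrays numbered 3 in each group held 47.2% of the residual sum of squares of the whole table. Of the prostate luminal markers listed, 8 were measured and all 8 lay above the array median in every group. By the same measure 1 of 5 fibroblast markers, 0 of 3 leukocyte markers and, of 3 endothelial markers, 0 in 22RV1 and 1 (VWF) in LnCaP lay above it. Values are log2 expression, where 1 unit is a doubling. Differences are given with their standard error (SE, n = 3 per group) from a limma fit of all 12 arrays and all 22277 probe sets. A probe set was called at a Benjamini-Hochberg adjusted p under 0.05, and only called changes are described as falls.

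In LnCaP every one of the 12 probe sets was lower after nicotine, against 48.9% of all probe sets. Their median log2 difference was -0.50 against 0.0034 over all probe sets, and thymidylate synthase passed the test. The 12 probe sets measure 7 genes whose levels varied together, so they are not 12 separate observations. The call was lower for 1 of 12 members, against 0.359% of all probe sets. The labels number the replicates alike in each group. Same-numbered arrays of a line deviated together, most clearly for number 3 and not clearly for number 2 of LnCaP. A fit with the replicate number as a block is therefore given beside each call it changes, and its calls depend on that pairing. With that block 8 of 12 probe sets, of 6 of the 7 genes, were called lower, against 2.23% of all probe sets. All 3 treated arrays lay below all 3 untreated arrays for 7 of the 12, against 8.49% of all probe sets. In RNA of whole cultures, fewer cells with these transcripts and less of them per cell cannot be told apart.

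**Figure D1:**
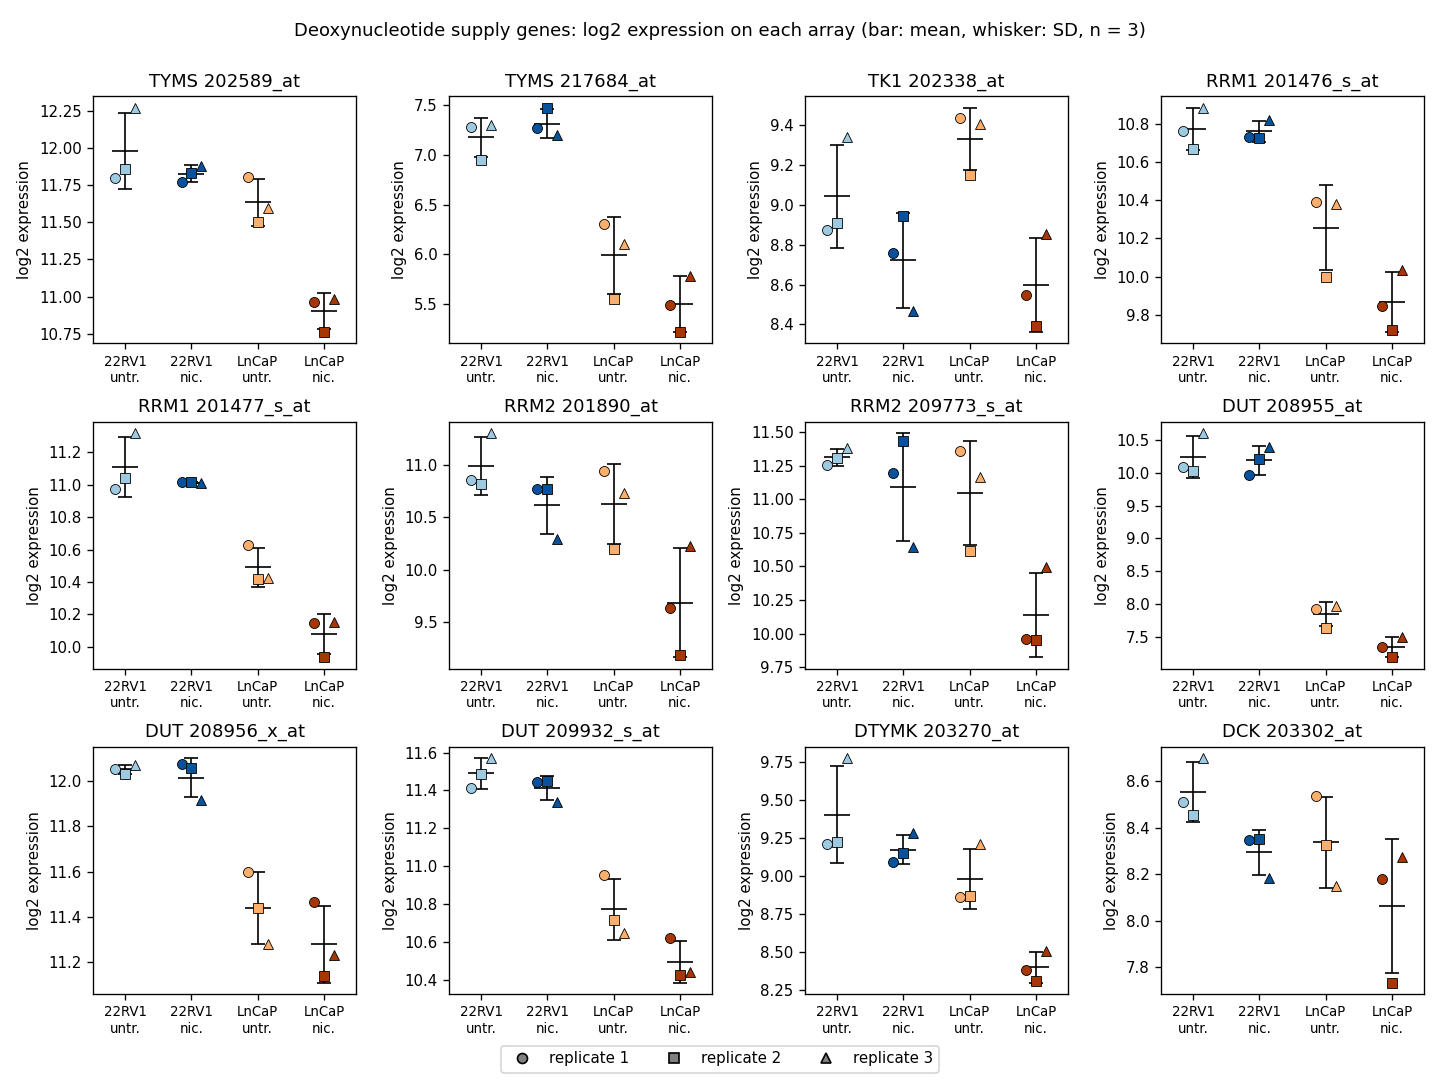
Log2 expression of the 12 probe sets on each array, by group, with the mean (bar) and SD (whisker, n = 3) and the replicate number as the marker shape. Each panel has its own axis, which does not start at 0. In LnCaP the treated arrays of TYMS 202589_at lie between 10.76 and 10.98, below the untreated ones at 11.50 to 11.81.

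TYMS, the enzyme that makes thymidylate de novo, gave 11.81, 11.50 and 11.60 in untreated LnCaP and 10.96, 10.76 and 10.98 after nicotine (probe set 202589_at). The treated arrays were all below the untreated ones. TYMS fell by 0.73 ± 0.13 on the log2 scale, to 60.2% of the untreated level (limma adjusted p = 0.0322, and 0.00755 with the block). Over 21 alternative settings its difference stayed between -0.80 and -0.64 and its adjusted p between 0.00755 and 0.177, with a call in 13. The call was lost when only the 6 arrays of LnCaP were fitted (adjusted p = 0.0917). It was also lost without untreated replicate 1 (0.120) or 3 (0.10) or treated replicate 1 (0.0738) or 2 (0.177) of LnCaP. Leaving out untreated replicate 2 (0.0522) or treated replicate 1 (0.0558) or 2 (0.0563) of 22RV1, which bear on it only through the shared estimate of spread and the adjustment, ended it as well.

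The second TYMS probe set, 217684_at, lay below the array median on all 6 LnCaP arrays, at 6.31, 5.56 and 6.11 untreated and 5.49, 5.22 and 5.79 treated. Its difference was -0.49 ± 0.19 and did not pass (limma adjusted p = 0.348, and 0.0889 with the block). The groups overlapped, and each treated array was below the untreated array of its number.

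DTYMK, the kinase that acts on the product of TYMS, was at 8.86, 8.87 and 9.21 untreated and 8.38, 8.31 and 8.51 treated. The groups did not overlap. Its difference was -0.58 ± 0.15, or 66.8% of the untreated level, which passed only with the block (limma adjusted p = 0.116, and 0.0144 with the block).

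The dUTPase DUT had differences of unlike size by probe set, all of them negative. Probe set 208955_at read 7.93, 7.64 and 7.97 untreated and 7.34, 7.19 and 7.50 treated, without overlap. That is a difference of -0.50 ± 0.16, called only with the block (limma adjusted p = 0.229, and 0.0188 with it). Probe set 209932_s_at read 10.95, 10.72 and 10.65 against 10.62, 10.42 and 10.44, also without overlap, a difference of -0.28 ± 0.095 that neither fit called (0.272, and 0.0926 with the block). For 208956_x_at, whose suffix marks probes that can bind other transcripts, the values were 11.60, 11.44 and 11.28 against 11.47, 11.14 and 11.23. These groups overlapped, and the difference was -0.16 ± 0.10 (0.691, and 0.356 with the block).

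Of the salvage kinases, TK1 had a difference as large as that of TYMS and DCK a smaller one. TK1, which phosphorylates thymidine, was at 9.44, 9.15 and 9.41 untreated and 8.55, 8.39 and 8.85 treated. All treated arrays lay below all untreated ones, with a difference of -0.73 ± 0.16, or 60.1% of the untreated level (limma adjusted p = 0.0826, and 0.0333 with the block). DCK, which phosphorylates deoxycytidine and activates several nucleoside drugs, was at 8.54, 8.33 and 8.15 against 8.18, 7.74 and 8.28. Its groups overlapped, and the difference of -0.27 ± 0.14 was called by neither fit (0.555, and 0.335 with the block). DCK was the 1 member that was higher in a treated LnCaP array than in the untreated array of its number, by 0.13 for number 3.

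The differences of largest size in LnCaP belonged to RRM2, the reductase subunit whose level limits the enzyme outside S phase, and they came with the widest spread. Probe set 201890_at read 10.94, 10.20 and 10.73 untreated and 9.64, 9.19 and 10.23 treated. One treated array, number 3, lay above the lowest untreated one, so the groups overlapped. The difference was -0.94 ± 0.26, or 52.1% of the untreated level (limma adjusted p = 0.146, and 0.0322 with the block). Probe set 209773_s_at gave 11.36, 10.61 and 11.16 against 9.96, 9.95 and 10.50, without overlap, a difference of -0.91 ± 0.22 (0.105, and 0.0267 with the block). Between arrays of number 1, 2 and 3 its differences were -1.40, -0.66 and -0.67.

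RRM1, the partner subunit, had smaller differences. Probe set 201477_s_at was at 10.63, 10.42 and 10.42 untreated and 10.15, 9.93 and 10.15 treated, without overlap, a difference of -0.41 ± 0.10 (limma adjusted p = 0.113, and 0.0390 with the block). Probe set 201476_s_at was at 10.39, 10.00 and 10.38 against 9.85, 9.72 and 10.03, with overlap, a difference of -0.39 ± 0.12 (0.188, and 0.0278 with the block). Within each array RRM2 (209773_s_at) minus RRM1 (201477_s_at) averaged 0.56 ± 0.31 (SD, n = 3) untreated and 0.058 ± 0.27 treated in LnCaP, on the log2 scale. That shift of -0.50 did not pass a two-sided exact permutation test (p = 0.2, where 3 arrays against 3 cannot go below 0.1), and in 22RV1 the shift was -0.12 (exact p = 0.8). That test does not use the pairing. Between arrays of number 1, 2 and 3 the shift was -0.92, -0.18 and -0.40 in LnCaP, negative in 3 of 3, and -0.10, 0.15 and -0.42 in 22RV1.

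**Figure D2:**
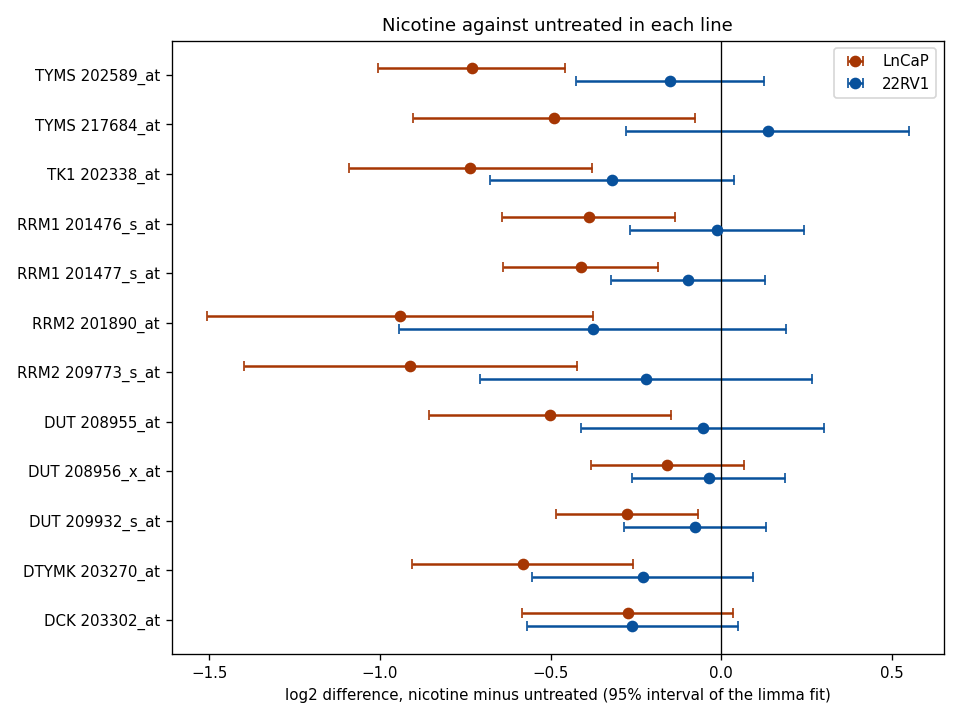
Log2 difference of nicotine minus untreated for each probe set in LnCaP and 22RV1, with the 95% interval of the limma fit (n = 3 per group, not adjusted for the number of probe sets). The LnCaP points run from -0.94 to -0.16 and the 22RV1 points from -0.38 to 0.14, and the intervals of the lines overlap for every probe set except TYMS 202589_at, whose difference between lines was not called (adjusted p = 0.658).

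In 22RV1 no member passed. The call was made for 0 of 12, and for 0% of all probe sets, where 1148 had an unadjusted p under 0.05, none of them a member. The adjusted p of the members ran from 0.971 to 0.999, and the block again called 0. The median difference was -0.12, and 11 of 12 were negative, against 50.7% of all probe sets. The groups failed to overlap for 2 of 12, RRM2 201890_at and DCK, against 5.84% of all probe sets.

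For these genes, both 22RV1 arrays numbered 3 differed from the rest of their groups, the treated one in a direction that varied by gene. TYMS 202589_at was at 11.80, 11.86 and 12.27 untreated and 11.77, 11.83 and 11.88 treated, with a difference of -0.15 ± 0.13. RRM2 201890_at was at 10.85, 10.81 and 11.30 untreated and 10.77, 10.77 and 10.29 treated, a difference of -0.38 ± 0.26. TK1 was at 8.87, 8.91 and 9.34 against 8.76, 8.94 and 8.47, a difference of -0.32 ± 0.16. In each of the 3 the untreated array numbered 3 was the highest of its group, and for RRM2 and TK1 the treated array numbered 3 was the lowest of all 6.

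Over all members, untreated 22RV1 replicate 3 lay above the mean of replicates 1 and 2 for 12 of 12 probe sets, by a median of 0.27 against 0.017 over all probe sets. Treated 22RV1 replicate 3 did so for 4 of 12, with a median of -0.13. In LnCaP, replicate 3 lay above that mean for 7 of 12 untreated (median 0.14) and 10 of 12 treated (median 0.24). In 22RV1 the treated array numbered 3 was lower than its untreated counterpart for 12 of 12, with a median of -0.35, and for each of them number 3 gave the lowest difference of the 3. For numbers 1 and 2 the medians were -0.044 and -0.00071, with 9 and 6 of 12 lower. In LnCaP the 3 numbers gave medians of -0.57, -0.53 and -0.41, with 12, 12 and 11 of 12 lower. The medians over all probe sets lay between -0.014 and 0.016 in these 6 pairs.

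**Figure D3:**
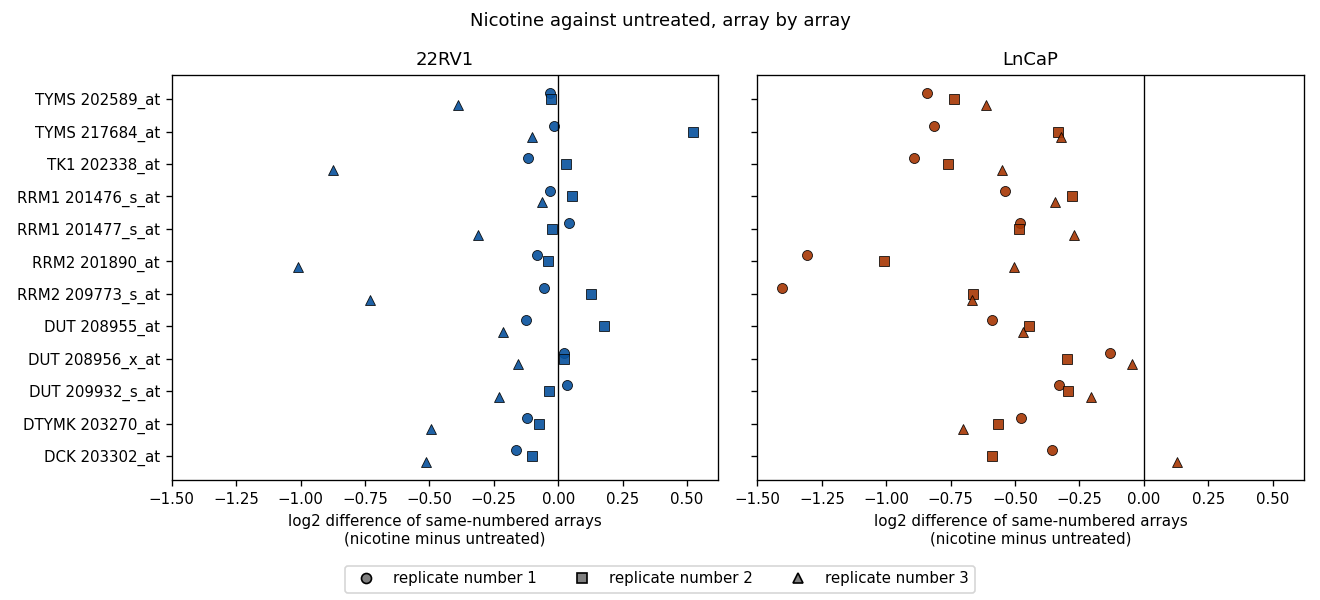
Log2 difference of the treated minus the untreated array of the same replicate number, for each probe set in 22RV1 and LnCaP. In 22RV1 the triangles (number 3) lie farthest left for every probe set, with a median of -0.35 against -0.044 and -0.00071 for numbers 1 and 2, and in LnCaP all numbers lie left of 0 except DCK number 3 at 0.13.

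The other members had small differences in 22RV1. RRM1 201477_s_at was at 10.97, 11.04 and 11.32 against 11.02, 11.02 and 11.01, a difference of -0.097 ± 0.10, and RRM1 201476_s_at had -0.013 ± 0.12. RRM2 209773_s_at had -0.22 ± 0.22 and DTYMK -0.23 ± 0.15. The DUT probe sets lay between -0.077 and -0.037. TYMS 217684_at was the 1 positive member, at 0.14 ± 0.19. DCK was at 8.51, 8.45 and 8.70 untreated and 8.35, 8.35 and 8.18 treated. With -0.26 ± 0.14 its difference was nearly that in LnCaP, though neither passed.

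Whether nicotine acted differently in the lines was tested as the LnCaP difference minus the 22RV1 difference. It was negative for 12 of 12 members, against 50% of all probe sets, with a median of -0.40. Limma called 0 of 12 and 0% of all probe sets. Unadjusted, 4 members had a p under 0.05, as did 1355 of all probe sets. With the replicate block 0 members were called, against 0.139% of all probe sets called with a lower effect in LnCaP. TYMS 202589_at had the smallest p, with -0.58 ± 0.18 (limma adjusted p = 0.658, and 0.126 with the block) and a 95% interval of -0.97 to -0.19 before adjustment. RRM2 209773_s_at had -0.69 ± 0.32 and DCK -0.013 ± 0.20, with an interval of -0.45 to 0.42.

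Averaged over both lines, no member passed in the fit without the block, where 0.157% of all probe sets were called lower. The median was -0.27, and TYMS 202589_at came closest at -0.44 ± 0.09 (limma adjusted p = 0.0801). With the block 4 of 12 were called lower, against 1.19% of all probe sets. These were TYMS 202589_at (0.0164), DTYMK (-0.41, 0.0227), TK1 (-0.53, 0.0465) and RRM2 201890_at (-0.66, 0.0485). Both fits share the arrays of the single-line comparisons, so these averages are no separate evidence.

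The lines also differed before treatment. Untreated LnCaP was lower than untreated 22RV1 for 8 of 12 probe sets by the test, against 20.9% of all probe sets, and these were all probe sets of TYMS, RRM1, DUT and DTYMK. The groups did not overlap, with LnCaP lower, for 7 of 12, against 24% of all probe sets. The median difference over the members was -0.47, against 0.043 over all. Beside this, the log2 values of the 8 luminal markers were summed on each untreated array. The sums were 77.9 to 82.9 in 22RV1 and 87.8 to 88.5 in LnCaP. KLK3 alone was higher in LnCaP by 4.09, while 2 of the 8, KRT8 and KRT18, were lower there by value. Such a sum is no measure of cell content, and its part in the result was not tested.

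DUT stood out by probe set 208955_at, which read 10.09, 10.03 and 10.61 in untreated 22RV1 and 7.93, 7.64 and 7.97 in untreated LnCaP. The difference was -2.39 ± 0.16, so that LnCaP had 19% of the 22RV1 level (limma adjusted p = 1.88e-07). The other DUT probe sets gave -0.61 ± 0.10 for 208956_x_at and -0.72 ± 0.095 for 209932_s_at, or 65.3% and 60.8%. All 3 thus agreed in direction and not in size. TYMS was split likewise, with -1.19 ± 0.19 for the dimmer 217684_at and -0.34 ± 0.13 for 202589_at (limma adjusted p = 0.0436). The 202589_at call was lost in 11 of 21 alternatives, among them median centring of the arrays (0.110) and the fit without the arrays numbered 3 (0.282).

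**Figure D4:**
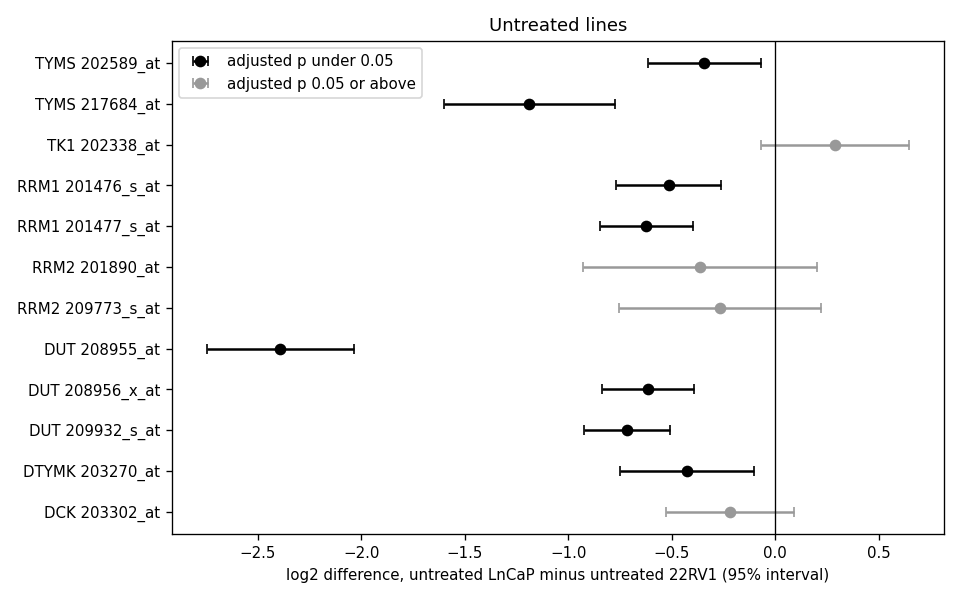
Log2 difference of untreated LnCaP minus untreated 22RV1 for each probe set, with the 95% interval of the limma fit (n = 3 per group), in black where the adjusted p was under 0.05. DUT 208955_at lies at -2.39, apart from the other 11 probe sets, which lie between -1.19 and 0.29.

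RRM1 was lower in LnCaP by both probe sets, -0.62 ± 0.10 and -0.52 ± 0.12, and kept its call in every alternative. DTYMK, at -0.43 ± 0.15 (limma adjusted p = 0.0343), lost its call in 5 of 21. RRM2 (-0.36 ± 0.26 and -0.27 ± 0.22) and DCK (-0.22 ± 0.14) did not pass. TK1 was the 1 member with a higher value in LnCaP, 0.29 ± 0.16 (limma adjusted p = 0.184). It was called higher in 3 of 21 alternatives, namely with array weights, without untreated 22RV1 replicate 3 and without the arrays numbered 3.

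By group mean, levels descended from untreated 22RV1 over treated 22RV1 and untreated LnCaP to treated LnCaP for 8 of 12 probe sets. The share of all probe sets with that order was not computed. The order restates the differences given above, none of which was called in 22RV1, and is no separate evidence. TYMS 202589_at averaged 11.98 ± 0.26 (SD, n = 3) in untreated 22RV1, 11.83 ± 0.056 in treated 22RV1, 11.63 ± 0.16 in untreated LnCaP and 10.90 ± 0.12 in treated LnCaP. Neighbouring groups in that order overlapped, except that treated LnCaP lay apart from untreated LnCaP. TK1 departed from that order, with its highest mean in untreated LnCaP (9.33 ± 0.16), then untreated 22RV1 (9.04 ± 0.26), treated 22RV1 (8.72 ± 0.24) and treated LnCaP (8.60 ± 0.24). Neighbouring TK1 groups in that order overlapped.

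The probe sets of a gene and the genes themselves varied together within lines. Likeness was measured as Pearson's r over the 12 arrays after each line's mean was subtracted. It describes arrays that share treatment groups and library differences, and has no test. The probe sets of a gene agreed best for RRM2 (r = 0.936) and RRM1 (0.834), then TYMS (0.712), while those of DUT ran from 0.302 to 0.883. Between the brightest probe sets of the 7 genes, the 21 pairs had r from 0.243 (DUT and DTYMK) to 0.982 (TYMS and RRM1), with a median of 0.789. Against the mean of the other members TK1 had 0.970, RRM1 0.952, TYMS 0.936, RRM2 0.843, DTYMK 0.793, DCK 0.778 and DUT 0.578.

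Outside the list, the 5 genes most like the mean of the 7 members were E2F8 (r = 0.991), TRIP13 (0.979), FANCI (0.976), RFC4 (0.976) and GINS1 (0.973). Without the arrays numbered 3 the values were 0.990, 0.976, 0.992, 0.972 and 0.991 in that order. E2F8 is a repressor of the E2F family, TRIP13 a checkpoint ATPase, FANCI a crosslink repair protein, RFC4 a clamp loader subunit and GINS1 a part of the replicative helicase. The 5 were picked over arrays that include treated and untreated LnCaP, so their direction there follows in part from the choice and is no separate evidence. In LnCaP, TRIP13 (-0.75), FANCI (-0.68) and GINS1 (-0.84) fell by the test. E2F8 at -1.02 (limma adjusted p = 0.0970, and 0.0241 with the block) and RFC4 at -0.58 (0.0907, and 0.0302 with the block) were called only with the block.

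The rest of the pathway was followed through lists of neighbouring steps, with the brightest probe set of each gene. As a base for the list counts in LnCaP, 0.359% of all probe sets were called lower, and 2.23% with the block. Those shares are not limited to 1 probe set per gene. A fit that was so limited called 70 of 11963 lower. The folate cycle that serves TYMS had 7 measured genes, all negative in LnCaP with a median of -0.14, and 0 called. GGH, which trims folate polyglutamates, was at -0.63 ± 0.18 (limma adjusted p = 0.180, and 0.0233 with the block), and MTHFD1, a folate-interconverting enzyme, at -0.37 ± 0.11 (0.164, and 0.0912 with the block). The other nucleotide kinases had 5 measured genes, a median of -0.0055 and 0 called by either fit. NME1, a nucleoside diphosphate kinase, was at -0.33 and TK2, the mitochondrial thymidine kinase, at 0.12. These medians lay closer to the median of all genes (-0.0014) than that of the 7 members did, which was -0.58 by the same choice of probe sets.

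Breakdown and pool cleaning enzymes had a median of -0.022 over 13 genes, and 1 was called. PNP, the purine nucleoside phosphorylase, fell by 0.58 ± 0.087 (limma adjusted p = 0.0207). De novo pyrimidine synthesis had 5 genes, all negative with a median of -0.28. CTPS1, which makes CTP, fell by 0.62 ± 0.093 (limma adjusted p = 0.0212), and with the block UMPS (-0.34, 0.0466) was called too. De novo purine synthesis had 11 measured genes, a median of -0.17, 0 called and 1 with the block, PFAS (-0.47, 0.0412), while IMPDH1 was at -0.32 (0.273). The nucleoside transporters SLC29A1 (-0.64, limma adjusted p = 0.0518) and SLC29A2 (-0.47, 0.0802) were called only with the block (0.0232 and 0.0332).

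The replication machinery that uses these nucleotides had medians as low as those of the members. All 11 replicative helicase genes were negative in LnCaP, with a median of -0.79, and 1 was called, GINS1 at -0.84 ± 0.16 (limma adjusted p = 0.0489), against 10 with the block. All 21 genes of origins, polymerases and the clamp were negative, with a median of -0.59, and 1 was called, LIG1, the ligase that seals Okazaki fragments, at -0.61 ± 0.12 (0.0490), against 14 with the block. The E2F and pocket protein genes had 11 measured members and a median of -0.0036, with 0 called and E2F8 alone with the block (0.0241), while RBL2, a pocket protein, was at 0.19 (0.453). In none of these lists was a member called higher in a nicotine comparison, and in 22RV1 none was called in either direction, with list medians from -0.17 to 0.011.

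**Figure D5:**
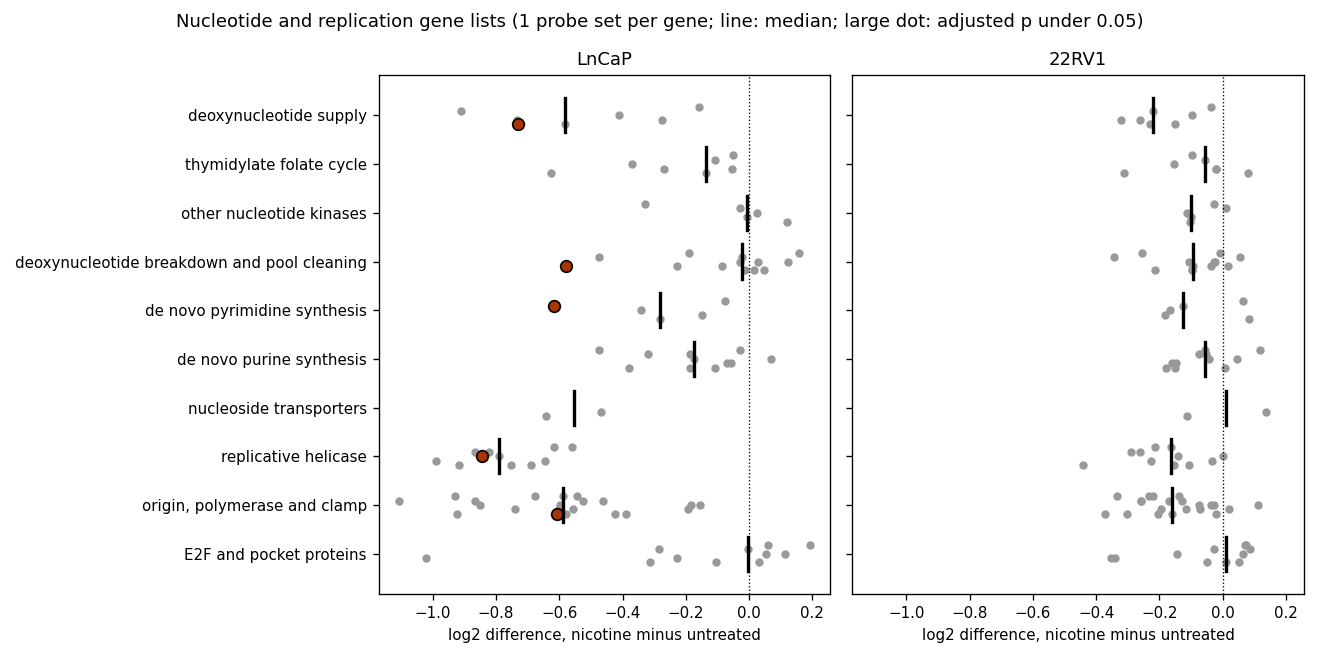
Log2 difference of nicotine minus untreated for each gene of the lists in LnCaP and 22RV1, 1 probe set per gene, with the list median as a line and called genes (limma adjusted p under 0.05) as large dots. In LnCaP the medians of the deoxynucleotide supply (-0.58), helicase (-0.79) and origin, polymerase and clamp genes (-0.59) lie left of those of the folate cycle (-0.14) and the other nucleotide kinases (-0.0055).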

How the data were processed

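The authors deposited log2 expression values of 22277 probe sets on 12 arrays. Array medians lay between 6.61 and 6.71. Their normalization is not given in the sources used here, nor is the software. Values were used as deposited. Genes were assigned from GEO's platform annotation: 19070 had 1 symbol, 1043 several and 2164 none listed, and updating changed 0 symbols. Some genes of the lists are not reported here.

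All arrays were fitted with limma 3.58.1 (R 4.3.3, lmFit and eBayes, group means), two-sided, adjusted by Benjamini-Hochberg over all probe sets in a contrast. Precision is limited by the number of arrays; the SE of a difference within a line had a median of 0.11. The fit was tested on simulated data.

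The members and lists were chosen with earlier results of these data known. The text names all member probe sets. Of each other list it names called members, at most 4 per direction, or else the 2 with the smallest p in LnCaP; UMPS, called only with the block, was named after its value was seen. Likeness took the 5 nearest genes.

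Replicate numbers come from the labels. Deviations from group means of same-numbered untreated and treated arrays correlated over probe sets with r = 0.445, 0.424 and 0.626 in 22RV1 and 0.358, 0.179 and 0.554 in LnCaP. Each was over 0.1, and the numbers were therefore treated as pairs. That limit does not tell pairs from other arrays, since 22RV1 numbers 1 and 2 also correlated across numbers, at 0.199 and 0.249. The pairing was clearest for number 3. LnCaP untreated replicate 2 correlated more with treated replicate 1 (0.257). The block was the number within the line, or across lines for the untreated arrays. Other alternatives were the unit of the fit, 2 scalings, a filter on dim probe sets, the arrays of 1 comparison alone, array weights, the variance model, each array left out, and the arrays numbered 3 left out.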

Additional observations from a re-analysis of the deposited data

How the results depend on the processing

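Of 1206 recomputed values, 1139 kept their direction and side of the threshold, 20 passed newly, 24 no longer passed and 23 reversed. Most of these values belong to differences that were not called as reported, so the pooled count does not show how stable the calls were. TYMS 202589_at kept its call in LnCaP in 13 of 21 alternatives and its call between the untreated lines in 10 of 21. In LnCaP all 12 members stayed negative in every alternative. Their count of calls (1 as reported) was 8 with the replicate block, 0 with the 6 LnCaP arrays alone, 2 with array weights, 3 without the arrays numbered 3 (TYMS, TK1 and DTYMK), and from 0 to 2 with 1 array left out. For the average (0 as reported) it was 4 with the replicate block, 1 with array weights and 1 with a trended, robust variance. For the untreated lines (8 as reported) it was 6 with median centring, 6 with the 6 untreated arrays alone, and from 6 to 8 with 1 array left out. It was also 4 of 7 with 1 probe set per gene and 7 of 11 with the filter on dim probe sets, where fewer were tested. The replicate block changed no other call among the members. Reversals were small and not called. In 22RV1, RRM1 201476_s_at was at 0.020 with quantile normalization, 0.034 under array weights and 0.012 without the arrays numbered 3. Without those arrays RRM1 201477_s_at was at 0.0094, RRM2 209773_s_at at 0.035, DUT 208955_at at 0.026 and DUT 208956_x_at at 0.022, and with array weights the DUT values were 0.019 and 0.0073. With 1 array left out these 5 ran from -0.064 to 0.043, -0.17 to 0.0073, -0.39 to 0.0015, -0.16 to 0.13 and -0.066 to 0.013, and the DCK difference between lines from -0.12 to 0.15. Apart from fewer features or arrays, the cause was not tested.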
